A study of Mus musculus with 84 samples.

Results

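The Cyp4a genes encode cytochrome P450 enzymes of the endoplasmic reticulum that hydroxylate the terminal, or omega, carbon of fatty acids. They were taken from a table of mouse liver counts as the genes whose Ensembl identifiers carry the symbols Cyp4a10, Cyp4a12a, Cyp4a12b, Cyp4a14, Cyp4a31 and Cyp4a32, which gave 6 of 17695 genes. The set was put together with its values at the highest parathion dose in the data in view, so the values of that group against the control group are given as a description, with no test. Of the 6 genes, 5 were among the 10415 genes with a median count above 8 that entered the tests. Cyp4a14 was not, since its median was 0.5 counts and 42 of 84 mice held no count.

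Transcripts were quantified by TempO-Seq, which joins neighbouring oligo probes hybridised to the same RNA and sequences the product. The livers came from male B6C3F1 mice. From 8 weeks of age the mice ate AIN-93G diet for 7 days with or without 1 of 3 organophosphate pesticides (OPPs). Fenthion (FT) was given at 2.5, 5, 10 and 20 ppm, methidathion (MT) at 10, 25, 50 and 100 ppm and parathion (PT) at 20, 40 and 80 ppm, and the control group at 0 ppm ate the same diet without an OPP. Each of the 12 groups held 7 mice, RNA was extracted from frozen liver tissue, and the mice shared cages that were assigned to groups as wholes. In such bulk tissue, fewer cells of a type and less RNA per cell cannot be told apart.

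Omega hydroxylation sends fatty acids toward dicarboxylic acids, which are shortened in peroxisomes and mitochondria, and it grows in importance when fatty acid supply to the liver exceeds what beta oxidation takes up. Cyp4a10 and Cyp4a14 are textbook targets of PPARα, the nuclear receptor that fatty acids and fibrate drugs activate, and are used as its most sensitive readouts in mouse liver. Cyp4a12a and Cyp4a12b are different in kind, with high expression in the liver and kidney of males, under androgen and growth hormone control, and with arachidonic acid among their substrates. Cyp4a31 and Cyp4a32 are close copies of Cyp4a10 whose regulation is less well described.

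All members lie within 323.5 kb of chromosome 4 in GRCm39. In order along the chromosome they are Cyp4a12a at chr4:115156243-115190012, Cyp4a12b at chr4:115268820-115296235, Cyp4a14 at chr4:115343397-115353344, Cyp4a10 at chr4:115375461-115390849, Cyp4a31 at chr4:115420818-115436212 and Cyp4a32 at chr4:115458134-115479704. Cyp4a14 is on the minus strand and the other members are on the plus strand. How alike their coding sequences are is shown here by 50 aligned bases of each, read from GRCm39 with GENCODE M39 on the strand of the gene. Capitals mark bases that differ from Cyp4a10.

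Cyp4a10: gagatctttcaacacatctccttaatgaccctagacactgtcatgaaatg
Cyp4a31: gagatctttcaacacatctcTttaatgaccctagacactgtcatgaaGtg
Cyp4a32: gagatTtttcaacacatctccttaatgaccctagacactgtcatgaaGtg
Cyp4a14: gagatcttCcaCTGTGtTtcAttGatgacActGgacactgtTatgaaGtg
Cyp4a12a: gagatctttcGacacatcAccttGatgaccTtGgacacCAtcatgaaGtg
Cyp4a12b: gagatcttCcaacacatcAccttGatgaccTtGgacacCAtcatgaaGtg

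The stretch lies in coding exon 5 of 5 members, at chr4:115381484-115381533 in Cyp4a10, chr4:115426945-115426994 in Cyp4a31, chr4:115349843-115349892 in Cyp4a14, chr4:115183426-115183475 in Cyp4a12a and chr4:115289678-115289727 in Cyp4a12b. In the transcript of Cyp4a32 used here, whose coding sequence is shorter (1209 bases against 1527 in Cyp4a10), it lies in coding exon 2, at chr4:115466863-115466912. Cyp4a31 and Cyp4a32 differed from Cyp4a10 at 2 bases each, both Cyp4a12 genes at 8, and Cyp4a14 at 13. The stretch was chosen for comparison and is not a probe, since probe positions were not used here.

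Over their whole coding sequences, Cyp4a10 was 96.6% identical to Cyp4a31 and 97.9% identical to Cyp4a32, and Cyp4a12a was 98.5% identical to Cyp4a12b. Cyp4a10 and Cyp4a14 shared 75.1% of aligned bases. A 50-base read can therefore fit more than 1 of the near-identical members at some positions. Every 50-base window of the Cyp4a14 coding sequence was absent from the other members, against 61.7% of windows in Cyp4a10, 68.7% in Cyp4a31, 45.6% in Cyp4a32 and 45.2% in each Cyp4a12 gene. The deposited counts are estimates that can split a read among genes. Counts of Cyp4a10, Cyp4a31 and Cyp4a32 as deposited, with no tolerance, were not whole numbers in any of the 84 mice, those of Cyp4a12a and Cyp4a12b in 76, and those of Cyp4a14 in 4. Of 69 Cyp4a10 counts between 1 and 100, 97.1% were multiples of 1.3477 within 0.02, and 2.9% were whole within 0.02, so its low counts came in fixed steps larger than 1. Sums of Cyp4a10, Cyp4a31 and Cyp4a32, and of Cyp4a12a and Cyp4a12b, are therefore given beside the single genes, and only Cyp4a14 can be read without this limit.

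Total counts lay between 6950381 and 15300589 per mouse, so that 3 counts, the smallest number taken as measured, were worth 0.196 to 0.432 CPM, the unit that scales the counts of every mouse to the same total. The animals were run in 3 experimental blocks, and each group had 2 mice in block 1, 3 in block 3 and 2 in block 4. RNA of 7 mice was isolated at the U.S. EPA, of which 2 were control mice, and RNA of the other 77, with all 7 mice at PT 80 ppm, at the contract laboratory EA. Mice are numbered within a group in the order of the records, and the number pairs nothing between groups.

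Cyp4a10 stood far above the control group in every mouse at PT 80 ppm. The 7 control mice held 2.11, 3.04, 0.202, 1.13, 0.822, 0.720 and 1.03 CPM. The 7 mice at PT 80 ppm held 244, 911, 57.4, 180.0, 69.2, 214 and 364 CPM. The groups did not overlap, and the highest mouse, mouse 2 of block 1, held far more than mouse 3 of block 3, the lowest. The fitted log2 fold change was 7.89 ± 0.74 (SE, n = 7 mice a group), and the means were 291 ± 293 (SD) against 1.29 ± 0.963 CPM. The ratio of mean CPM was 224 in block 1, 142 in block 3 and 330 in block 4.

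Cyp4a14 showed the same separation, from a control level close to 0. Of the control mice, mouse 1 held 0.157 CPM, mouse 5 held 0.102 CPM and the other 5 held no count. The 7 mice at PT 80 ppm held 52.4, 203, 17.5, 23.8, 16.2, 28.8 and 39.6 CPM. The groups did not overlap, and as for Cyp4a10 the highest mouse was mouse 2 and the 2 lowest were mice 3 and 5. Summed over mice, 4483 counts stood against 3, a ratio of depth-scaled sums of 1575 (exact 95% interval 539 to 7639, for counting error only). It was 815 without mouse 2 and 3993 without control mouse 1, which held 2 of the 3 control counts.

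The close copies of Cyp4a10 lay nearer to their control levels. In the control mice Cyp4a31 held 12.8, 12.7, 6.45, 5.78, 8.48, 4.29 and 3.14 CPM. The PT 80 ppm mice held 1.62, 6.07, 25.2, 5.20, 1.52, 4.45 and 7.87 CPM. The groups overlapped, mouse 3 at PT 80 ppm lay above every control mouse and mice 1 and 5 lay below, and the log2 fold change was 0.03 ± 0.40. The log2 ratio of mean CPM was -1.73 in block 1, 0.62 in block 3 and 0.73 in block 4, so its direction was not the same in all blocks.

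Cyp4a32 held 3.12, 6.21, 6.33, 3.72, 4.52, 2.73 and 2.23 CPM in the control mice. The values at PT 80 ppm were 6.20, 8.24, 3.93, 8.08, 3.90, 14.3 and 14.2 CPM. The groups overlapped, with 4 of 7 mice above every control mouse and both mice of block 4 the highest, and the log2 fold change was 1.18 ± 0.38. Summed over Cyp4a10, Cyp4a31 and Cyp4a32, the counts gave 13.1 ± 5.52 CPM in control mice and 307 ± 292 CPM at PT 80 ppm, without overlap, and a log2 fold change of 4.59 ± 0.42. Cyp4a10 took a median of 10.6% of that sum in control mice (range 1.56 to 16.2%) and 93.1% at PT 80 ppm (range 66.4 to 98.5%).

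**Figure D1:**
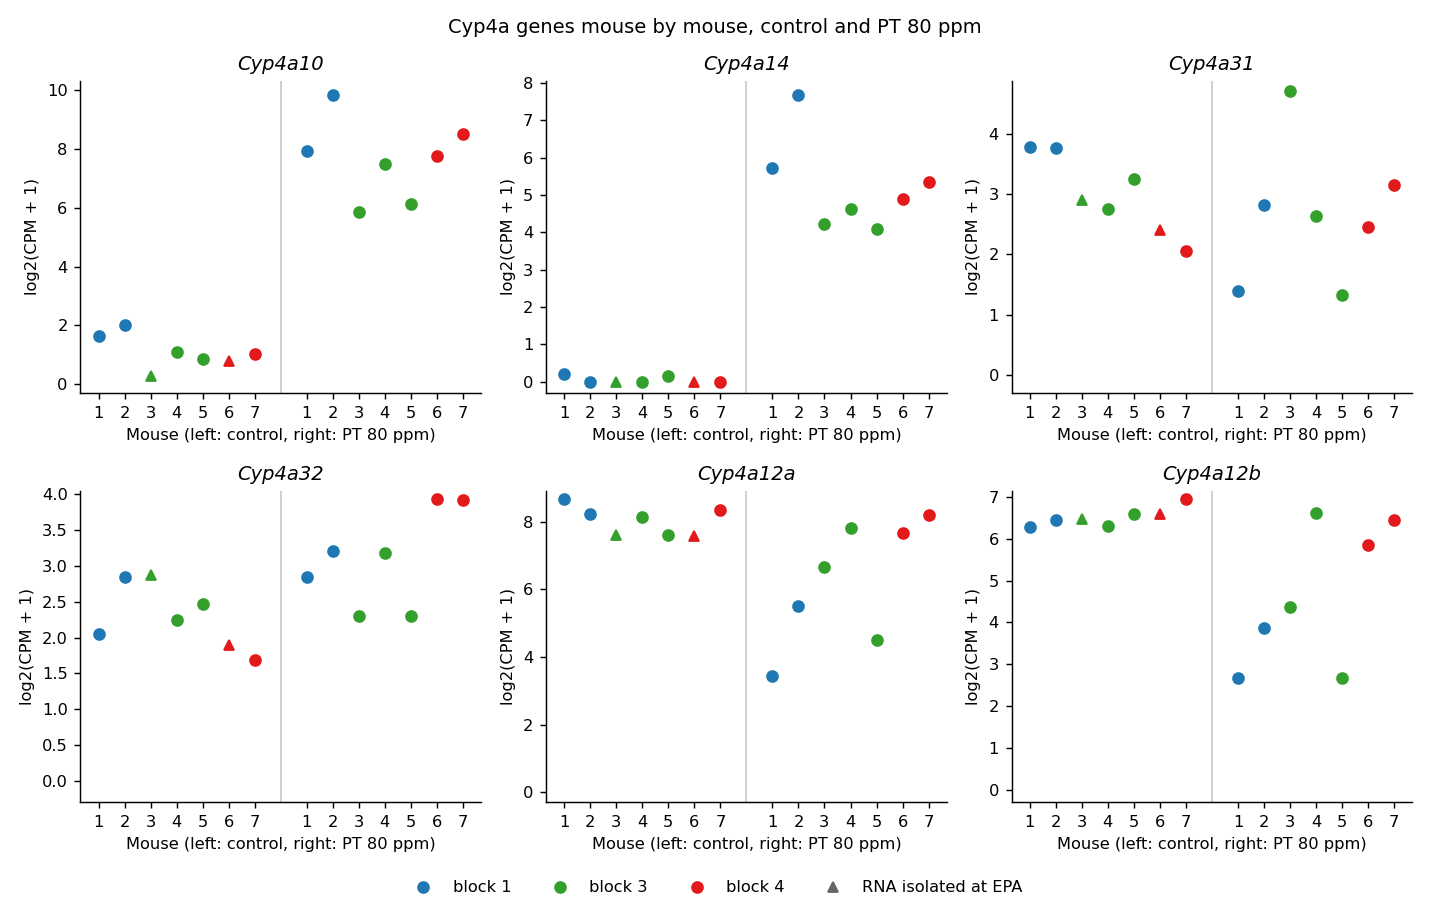
Level of each Cyp4a gene as log2(CPM + 1) in each control mouse (left of the line) and each mouse at PT 80 ppm (right), 1 point a mouse, coloured by experimental block, with triangles for RNA isolated at EPA. Cyp4a10 and Cyp4a14 do not overlap between groups, while Cyp4a12a and Cyp4a12b range from the control level down to 9.75 and 5.33 CPM.

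Cyp4a12a and Cyp4a12b differed in direction from Cyp4a10 and varied among the mice at PT 80 ppm. Cyp4a12a held 404, 298, 195, 282, 194, 190 and 327 CPM in the control mice. At PT 80 ppm it held 9.75, 44.4, 101, 222, 21.9, 204 and 293 CPM. Mice 1, 2, 3 and 5 lay below every control mouse and mice 4, 6 and 7 within their range. The log2 fold change was -1.31 ± 0.30.

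Cyp4a12b held 76.9, 86.7, 87.6, 78.01, 95.7, 95.9 and 122 CPM in the control mice. The PT 80 ppm mice held 5.33, 13.5, 19.6, 97.1, 5.36, 57.1 and 85.7 CPM. Mice 1, 2, 3, 5 and 6 lay below every control mouse, and mice 4 and 7 within their range, and the log2 fold change was -1.30 ± 0.27. The sum of both genes gave 362 ± 81.2 CPM in control mice and 169 ± 149 CPM at PT 80 ppm, with 5 of 7 mice below every control mouse and a log2 fold change of -1.32 ± 0.29.

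The block means differed in the size of this difference. For Cyp4a12a the control mean divided by the PT 80 ppm mean was 12.96 in block 1, 1.94 in block 3 and 1.04 in block 4. For Cyp4a12b it was 8.67, 2.14 and 1.52. With 2 or 3 mice a group in each block these are values without a test. Block 3 alone spanned 21.9 to 222 CPM of Cyp4a12a, and its mouse 5 lay between the mice of block 1. Over the 7 mice at PT 80 ppm, the high Cyp4a10 and the low Cyp4a12a did not go together: mouse 1 had 244 CPM of Cyp4a10 with the lowest Cyp4a12a, and mouse 7 had 364 CPM with the highest.

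Of the 5 fitted members, Cyp4a10, Cyp4a32, Cyp4a12a and Cyp4a12b had a fitted change of 2-fold or more at PT 80 ppm, with no test. As background, 3.3% of all tested genes (344 of 10415) were called there, 1.63% higher and 1.67% lower. A call needs an adjusted p under 0.05 as well as 2-fold, so this share is not at the same threshold as the fold changes of the members. Since the members were chosen on this contrast, nothing is read from their count. Every PT 80 ppm mouse lay above every control mouse for 0.903% of tested genes and below for 0.538%.

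The other 10 dosed groups were compared with the same 7 control mice, which also entered the contrast on which the genes were chosen. Over the 5 tested members and 10 groups, 1 difference passed the test (edgeR quasi-likelihood test, Benjamini-Hochberg adjusted p under 0.05 over all tested genes, and at least 2-fold), Cyp4a10 at FT 10 ppm. In that comparison 0.211% of all tested genes passed, 22 of 10415. The share was 0.048% at MT 100 ppm, 0.0096% at MT 50 ppm and PT 20 ppm and 0% in the other 6 groups. The 7 mice at FT 10 ppm held 30.3, 18.9, 1.19, 27.01, 3.20, 2.11 and 0.880 CPM. Mice 1, 2 and 4, of blocks 1, 1 and 3, were far above the rest, mouse 5 was just above the highest control mouse and the other 3 lay within the control range. The log2 fold change was 3.10 ± 0.72 (adjusted p = 0.0241), and it lost the call without mouse 4 (2.71, adjusted p = 0.0705), without control mouse 5 (3.02, adjusted p = 0.108), and when the 3 near-identical members were summed (0.93 ± 0.39, adjusted p = 0.184).

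At FT 20 ppm Cyp4a10 held 1.498, 1.43, 16.6, 3.23, 3.51, 12.1 and 3.55 CPM, with 5 of 7 mice above every control mouse. The log2 fold change was 2.33 ± 0.74 and did not pass (adjusted p = 1.0, edgeR quasi-likelihood test). Of the 10415 genes 0 passed there by edgeR and 0 by DESeq2, and 415 had an unadjusted p under 0.05 by edgeR. At PT 40 ppm it held 9.89, 2.25, 3.26, 7.76, 2.20, 5.44 and 2.42 CPM, with 4 of 7 mice above every control mouse. The log2 fold change there was 1.97 ± 0.75 and did not pass either (adjusted p = 0.463, edgeR quasi-likelihood test), in a comparison with 0 passing genes by edgeR and by DESeq2 and 886 at an unadjusted p under 0.05. In each of these groups the mice overlapped with the control mice.

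The order of the group means of Cyp4a10 ran from PT 80 ppm through FT 10 ppm (11.9 ± 13.1 CPM), FT 20 ppm (5.98 ± 5.91 CPM), PT 40 ppm (4.74 ± 3.06 CPM), MT 50 ppm (3.53 ± 3.83 CPM) and FT 5 ppm (3.11 ± 2.04 CPM). Below these came MT 10 ppm (2.88 ± 2.17 CPM), MT 100 ppm (2.55 ± 2.25 CPM), FT 2.5 ppm (2.50 ± 2.67 CPM), PT 20 ppm (2.03 ± 1.81 CPM), the control group and MT 25 ppm (0.824 ± 0.790 CPM). No 2 neighbours in this order differed by more than the larger of their SDs, PT 80 ppm included, because its own mice spread as widely as its mean.

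Cyp4a14 had at least 1 count in all 7 mice at FT 20 ppm and at PT 40 ppm, in 4 mice at FT 10 ppm and in 2 control mice. Median counts were 1 at FT 20 ppm, 2 at PT 40 ppm and 2 at FT 10 ppm, below the 3 counts taken as measured. At FT 20 ppm the lowest, median and highest mouse held 0.0654, 0.104 and 1.82 CPM, and mouse 3, with the 1.82 CPM, was also the highest there for Cyp4a10. At PT 40 ppm they held 0.0796, 0.163 and 0.985 CPM. At FT 10 ppm the 3 mice with the most Cyp4a14 were mice 1, 2 and 4, the same 3 that were high for Cyp4a10, at 0.517, 0.771 and 0.344 CPM.

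Against the 3 counts of the control group, the summed counts of Cyp4a14 were 29 at FT 20 ppm, 27 at PT 40 ppm and 22 at FT 10 ppm. The ratios of depth-scaled sums were 9.50 (exact 95% interval 2.94 to 48.7), 8.71 (2.68 to 44.8) and 7.57 (2.27 to 39.5), and cover counting error only. Single mice decided their size. Without mouse 3, which held 20 of the 29 counts, the ratio at FT 20 ppm was 3.39 (0.847 to 19.5), without mouse 4 that at PT 40 ppm was 5.34 (1.49 to 28.99), and without mouse 2 that at FT 10 ppm was 4.93 (1.33 to 27.2). Without control mouse 1, which held 2 of the 3 control counts, they were 24.1, 22.1 and 19.2. In the fit over all 17683 genes with a count, none of the other 10 dosed groups passed for Cyp4a14, and PT 80 ppm was not tested. Its log2 fold change was 3.01 ± 1.06 at FT 20 ppm, 2.72 ± 1.10 at PT 40 ppm and 2.43 ± 1.14 at FT 10 ppm (edgeR quasi-likelihood test, adjusted p = 0.354, 0.501 and 0.324), in comparisons passed by 0.00566%, 0% and 0.124% of those genes. In the 7 remaining groups the gene had 1 to 6 summed counts.

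**Figure D2:**
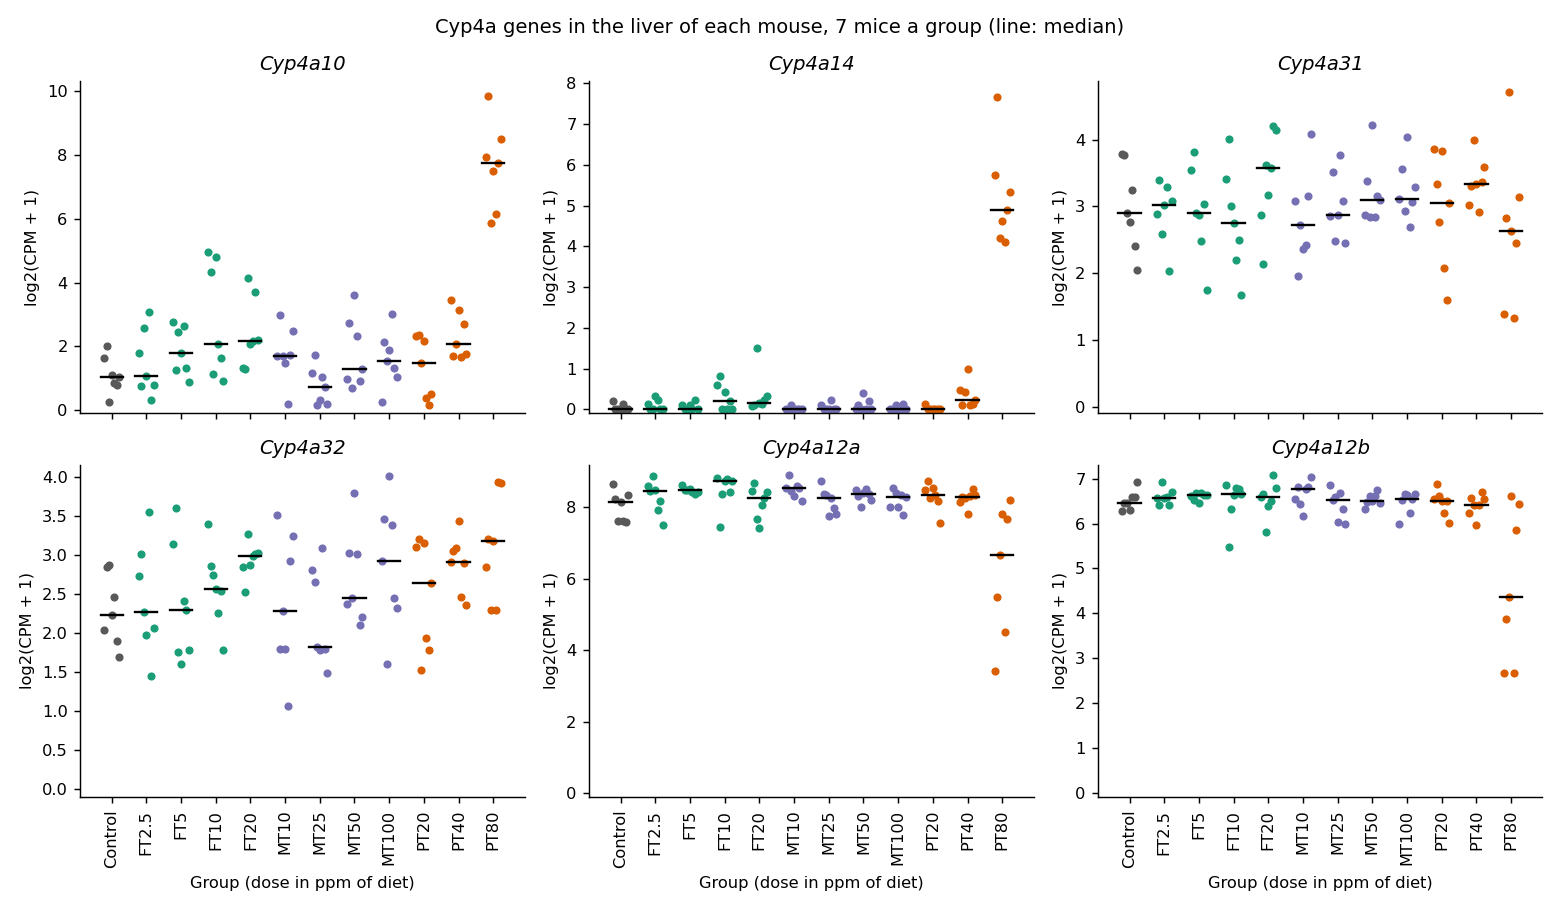
Level of each Cyp4a gene as log2(CPM + 1) in the 12 groups, 1 point a mouse and 7 mice a group, with a line at the group median. Apart from PT 80 ppm, every group overlaps with the control group in every gene, and 3 mice at FT 10 ppm stand out for Cyp4a10 at 18.9 to 30.3 CPM.

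For the other 4 tested members no lower dose was called. Outside PT 80 ppm, the log2 fold changes against control ran from 0.02 to 0.35 for Cyp4a12a, from -0.10 to 0.14 for Cyp4a12b, from -0.17 to 0.52 for Cyp4a31 and from 0.08 to 0.84 for Cyp4a32, and none passed the test. The group means of Cyp4a12a outside PT 80 ppm lay between 270 CPM, in the control group, and 372 CPM, at FT 10 ppm, and those of Cyp4a12b between 85.01 CPM at PT 40 ppm and 102 CPM at MT 10 ppm. In both genes PT 80 ppm was the lowest group, and its gap to the next mean was the only one that exceeded the larger SD of the neighbours. For Cyp4a31 the means lay between 6.77 CPM at FT 2.5 ppm and 10.6 CPM at FT 20 ppm, and for Cyp4a32 between 4.02 CPM at MT 25 ppm and 8.41 CPM at PT 80 ppm, and no neighbours differed by more than the larger SD.

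**Figure D3:**
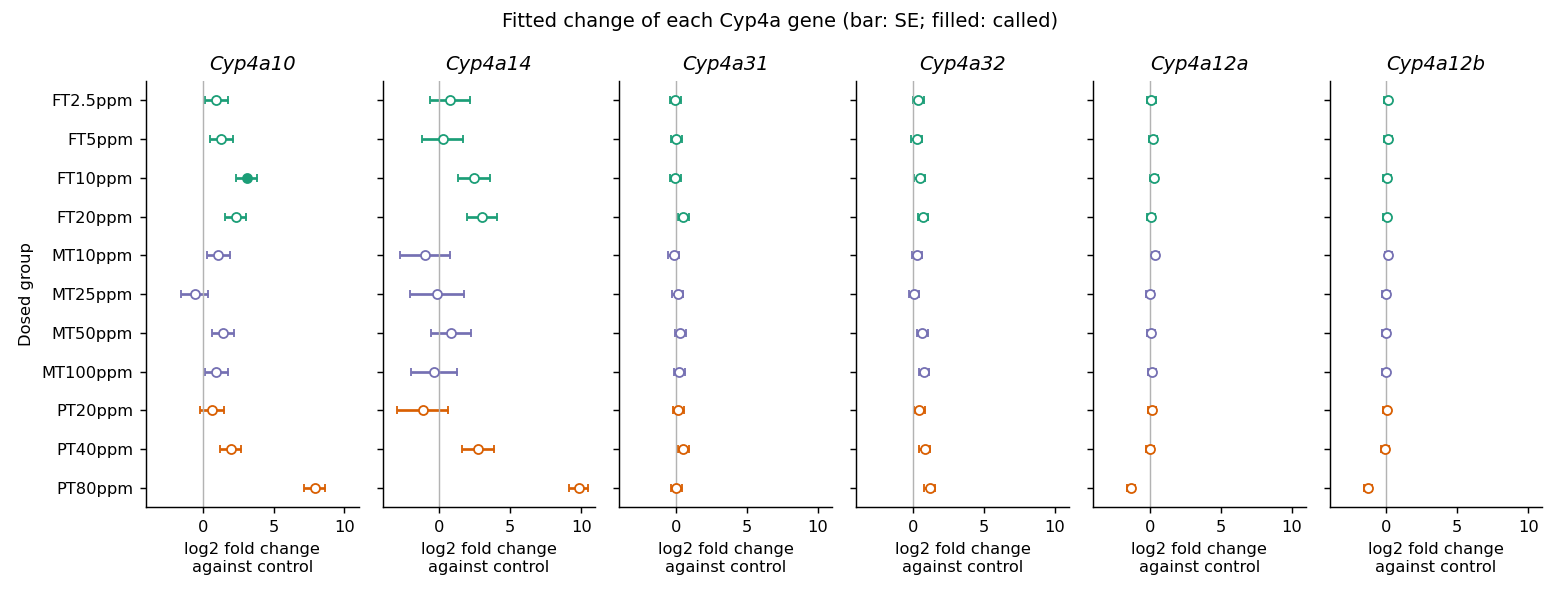
Fitted log2 fold change of each Cyp4a gene against the 7 control mice in the 11 dosed groups, with bars of 1 SE. The filled point, Cyp4a10 at FT 10 ppm, passed the test, and values at PT 80 ppm are drawn open because they carry no test.

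A contrast that left out the control mice and PT 80 ppm asked whether a gene differed anywhere among the 10 other dosed groups. Mice of the groups left out still entered the fit, with its shared estimate of the spread and its block and isolator terms. Cyp4a10 passed (edgeR quasi-likelihood test, adjusted p = 0.0262), as did 1.08% of tested genes, 113 of 10415. It no longer passed without mouse 1, 2 or 4 of FT 10 ppm (adjusted p = 0.0897, 0.0576 and 0.120), without block and isolator in the model (adjusted p = 0.0944), or when summed with Cyp4a31 and Cyp4a32 (adjusted p = 0.505). The adjusted p was 0.868 for Cyp4a31, 0.774 for Cyp4a32, 0.982 for Cyp4a12a and 0.999 for Cyp4a12b in the same test. For Cyp4a14 it was 0.0698 in the fit over all genes with a count, where 0.554% of genes passed.

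Of 15 slopes over dose, 5 tested members within 3 OPPs, 0 passed the test by edgeR or DESeq2, and 1 had an unadjusted p under 0.05 by edgeR. On the log2 scale per doubling of the dose, the slope of Cyp4a10 was 0.58 ± 0.22 within FT (edgeR quasi-likelihood test, adjusted p = 0.589), 0.11 ± 0.21 within MT and 1.31 ± 0.70 from PT 20 to PT 40 ppm. The slope of Cyp4a10 within FT exceeded that within MT by 0.47 ± 0.30 (edgeR quasi-likelihood test, adjusted p = 0.980, in a test passed by 0.0192% of genes), so a difference between these OPPs was not shown. For Cyp4a14 it was 0.90 ± 0.30 within FT and 3.90 ± 1.26 from PT 20 to PT 40 ppm (edgeR quasi-likelihood test, adjusted p = 0.623 and 0.771). Among all tested genes 0% passed within FT and within PT and 0.0288% within MT.

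Cyp4a10, Cyp4a32 and Cyp4a14 differed with the blocks and Cyp4a12a with the place of RNA isolation. Large shares of all genes did so too, so these differences are not read as particular to the members. Cyp4a10 was lower in block 4 than in block 1 by a log2 difference of -1.24 ± 0.38 (edgeR quasi-likelihood test, adjusted p = 0.00612), and Cyp4a32 by -0.72 ± 0.20 (adjusted p = 0.00238), beside 38.1% of tested genes. Any difference among the blocks was called for 39.9% of tested genes. Outside PT 80 ppm the median of Cyp4a10 was 2.38 CPM in 22 mice of block 1 and 0.967 CPM in 22 mice of block 4. Cyp4a14 differed among blocks in the fit over all genes with a count (adjusted p = 0.0019, edgeR quasi-likelihood test), as did 23.4% of those genes.

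Cyp4a12a was lower in RNA isolated at EPA by -0.62 ± 0.24 on the log2 scale (edgeR quasi-likelihood test, adjusted p = 0.0357), as 38.7% of tested genes differed between isolators. Its median outside PT 80 ppm was 220 CPM in the 7 EPA mice and 333 CPM in 70 EA mice. The call was lost when Cyp4a12a and Cyp4a12b were summed (adjusted p = 0.115) or when total counts were used for scaling (adjusted p = 0.113). The 3 control mice with the least Cyp4a12a were the 2 EPA mice and mouse 5.

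Across the 84 mice, members formed loose pairs. Spearman's rho of log2(CPM + 1) was 0.62 between Cyp4a10 and Cyp4a14 over 84 mice and 0.49 over the 77 mice outside PT 80 ppm. It was 0.57 over either set between Cyp4a10 and Cyp4a32, 0.58 and 0.70 between Cyp4a31 and Cyp4a32, and 0.55 and 0.47 between Cyp4a12a and Cyp4a12b. Between Cyp4a10 and Cyp4a12a it was 0.01 and 0.25. The mice share blocks, isolators and depth, and near-identical members share reads, so these are descriptions.

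**Figure D4:**
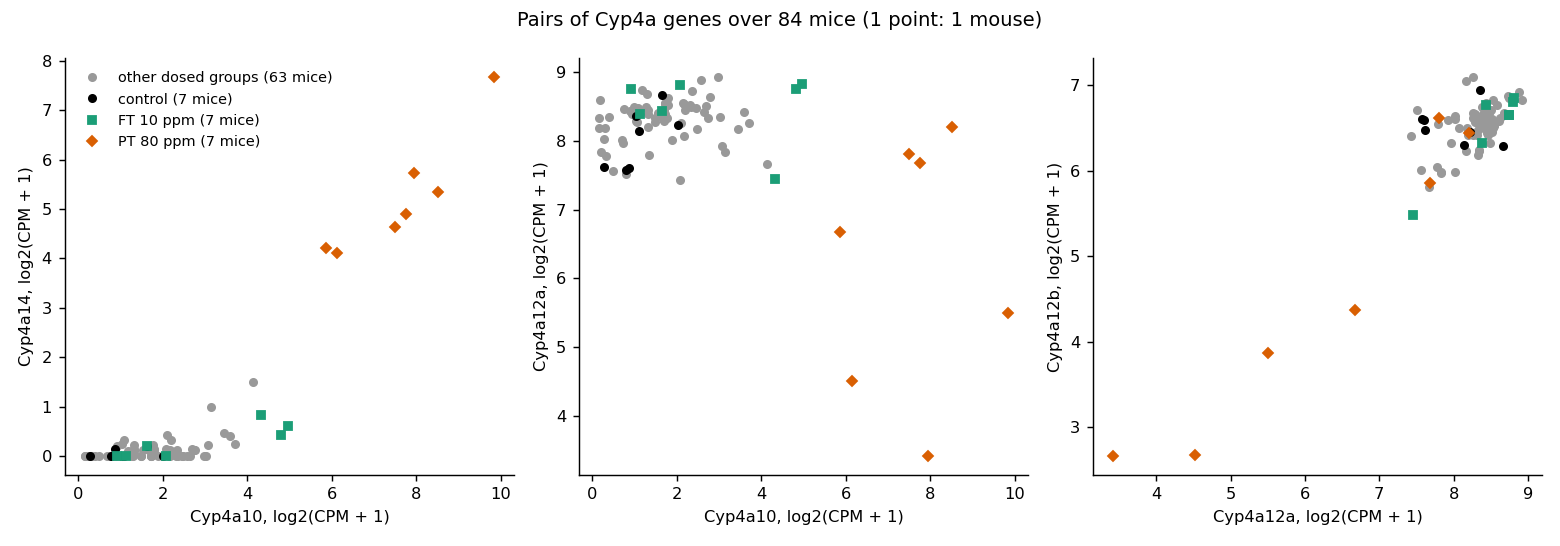
Levels of 3 pairs of Cyp4a genes as log2(CPM + 1), 1 point a mouse, 84 mice. PT 80 ppm mice (orange) are high in both Cyp4a10 and Cyp4a14, spread from 9.75 to 293 CPM along Cyp4a12a, and include mice within the control range of both Cyp4a12 genes (mice 4 and 7).

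The 10 genes most like Cyp4a10 over 84 mice, of 10410 compared and members left out, were Nr1i3, Acadm, Acot1, Cyp2c39, Gstt2, Fgf1, Pctp, Mat1a, Slc16a7 and Sult1a1. Spearman's rho was 0.72 for Nr1i3, which encodes the xenobiotic receptor CAR, 0.71 for the acyl-CoA dehydrogenase Acadm and 0.71 for the acyl-CoA thioesterase Acot1, and was 0.63 for the tenth, Sult1a1. Over the 77 mice outside PT 80 ppm rho was 0.64 for Nr1i3, 0.64 for Acadm and 0.67 for Acot1. For the rest of the 10 it lay between 0.53 (Slc16a7) and 0.66 (Pctp). With group means subtracted over 84 mice, the 10 lay between 0.37 (Sult1a1, rank 162) and 0.69 (Acot1, rank 1). Those most like Cyp4a12a were C8g (0.87), Ghitm (0.84), Ncbp2 (0.82), Sar1b (0.82) and Lamtor4 (0.81), and over 77 mice they lay between 0.81 and 0.86. With group means subtracted they lay between 0.66 (Ghitm, rank 59) and 0.85 (C8g, rank 1). The lowest over 84 mice were Itgb3 (-0.77), Cd302 (-0.71), Crebbp (-0.67), Ccl9 (-0.66) and Fyttd1 (-0.65).

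Of the genes annotated within 200 kb of a member, 28 in all, 5 were in the table and 2 were tested. At PT 80 ppm Cyp4b1, a P450 gene that overlaps Cyp4a32 on the opposite strand, had a log2 fold change of 0.26 ± 0.20, and Efcab14 one of -0.11 ± 0.06.

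Ppara encodes the receptor for which Cyp4a10 and Cyp4a14 serve as readouts. Its control mean was 304 ± 74.7 CPM and its PT 80 ppm mean 300.1 ± 88.9 CPM, a log2 fold change of 0.01 ± 0.17, and over the 11 dosed groups the change lay between -0.18 and 0.18. Of 20 tested genes of nuclear receptors, their cofactors and growth hormone signalling, 2 were called higher at PT 80 ppm and 0 lower. Of all tested genes 1.63% were called higher and 1.67% lower. The list median was 0.06, beside 0.01 over all tested genes. The 2 called genes were Nr1i3 (1.78 ± 0.24, with 503 to 1142 CPM in the PT 80 ppm mice against 128 to 328 CPM in control mice) and Ppargc1a (1.10 ± 0.21), a coactivator of mitochondrial gene expression. Only the first did not overlap between groups, and the second lost its call without mouse 1 (0.76 ± 0.18).

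Of 40 listed other PPARα targets, 35 were tested at PT 80 ppm. By edgeR 2 were called higher and 1 lower, beside 3.3% of all tested genes, 4 were called by DESeq2, and 17 had an unadjusted p under 0.05 by edgeR. The share of all tested genes at that unadjusted threshold is not given here, so the 17 is not read as a result about the list. The list median was 0.18 on the log2 scale. Acot1, which frees fatty acids from coenzyme A in the cytosol, changed by 2.06 ± 0.37 and held 10.8, 17.3, 5.28, 14.5, 2.31, 10.9 and 20.9 CPM in the 7 mice, against 1.49 to 6.81 CPM in control mice. Its lowest values were in mice 3 and 5, which were also the lowest for Cyp4a10. Cpt1b, a carnitine palmitoyltransferase, changed by 1.02 ± 0.32, and Plin2, which coats lipid droplets, by -1.10 ± 0.24. The call of Cpt1b was lost without mouse 1 (0.74 ± 0.33) or 4, and that of Plin2 without mouse 1 (-0.90 ± 0.22) or 2.

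Values for peroxisomal and mitochondrial oxidation genes that were not called were 0.75 ± 0.19 for the bifunctional enzyme Ehhadh and 0.63 ± 0.10 for Acadm. For Pdk4, which restrains glucose oxidation, the value was 0.68 ± 0.50. Ehhadh, Acadm and Pdk4 were picked after their values were seen. Each lay above 0.18, the median of the listed PPARα targets, so they do not stand for that list. Of 17 tested genes of other Cyp4 families and of omega oxidation, 1 was called, beside 3.3% of all tested genes. This was Por, the reductase that supplies electrons to all microsomal P450 enzymes, at 2.33 ± 0.32. It held 956, 802, 62.9, 51.4, 174, 87.7 and 159 CPM against 21.9 to 78.4 CPM in control mice, so that the 2 mice of block 1 were the highest. Aldh3a2, the fatty aldehyde dehydrogenase of the pathway, had 0.70 ± 0.26, and Cyp4f14 and Cyp4v3 had 0.00 ± 0.14 and -0.81 ± 0.17.

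Cyp4a12a and Cyp4a12b stood beside other sex-biased liver genes. Of 24 tested male-biased genes, members left out, 13 were called lower at PT 80 ppm and 0 higher. Of all tested genes 1.67% were called lower and 1.63% higher. The list median was -1.02, beside 0.01 over all tested genes. The lists were drawn up with earlier results of these data known, so these counts are a description. The 13 included Moxd1 (-3.46 ± 0.81, and -5.21 ± 0.90 without mouse 4), the fatty acid elongase Elovl3 (-2.70 ± 0.47), Ugt2b38 (-2.20 ± 0.49), Mup21 (-1.44 ± 0.41) and the complement genes C9 (-1.50 ± 0.25) and C6 (-1.32 ± 0.17). C6 alone among the 8 largest changes did not overlap between groups, at 63.2 to 261 CPM against 271 to 390 CPM. Elovl3 held 3.86, 48.2, 392, 2661, 41.2, 2107 and 1135 CPM in the 7 mice, and its 4 lowest mice, 1, 5, 2 and 3 in that order, were the 4 lowest for Cyp4a12a in the same order.

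Of 16 tested female-biased genes, 13 were called higher and 0 lower, beside 1.63% and 1.67% of all tested genes. The list median was 1.36, beside 0.01 over all tested genes. This list too was drawn up with earlier results of these data known. Sult1e1, the estrogen sulfotransferase, changed by 6.95 ± 1.01, and by 1.82 ± 0.53 without mouse 1. Mouse 1 held 3441 CPM, mouse 2 held 39.6 CPM and the other 5 held 0.216 to 8.22 CPM, against 1.02 to 6.68 CPM in control mice. Fmo2, a flavin monooxygenase, changed by 4.56 ± 0.55 and did not overlap between groups, with 206 and 47.6 CPM in mice 1 and 2 and 1.34 to 5.64 CPM in the others, and the change was 3.17 ± 0.39 without mouse 1. Cyp2c39 changed by 3.48 ± 0.43, also without overlap, at 25.9 to 211 CPM against 2.63 to 18.9 CPM. In both genes mouse 1, the lowest for Cyp4a12a, was the highest, as it was for Sult1e1, Cyp17a1, Fmo1 and Cyp3a16. For Atp6v0d2 (2.81 ± 0.42, without overlap) and Abcd2 (2.12 ± 0.47), also called higher, mouse 1 was instead the lowest. The PT 80 ppm mice held 1.29 to 13.1 CPM of Atp6v0d2 and 1.38 to 6.60 CPM of Abcd2. Over the other 10 dosed groups, genes of all lists gave 1700 comparisons, of which 0 were called by edgeR and 2 by DESeq2, and 172 had an unadjusted p under 0.05 by edgeR. The share of all genes at that unadjusted threshold over these 10 groups is not given here.

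**Figure D5:**
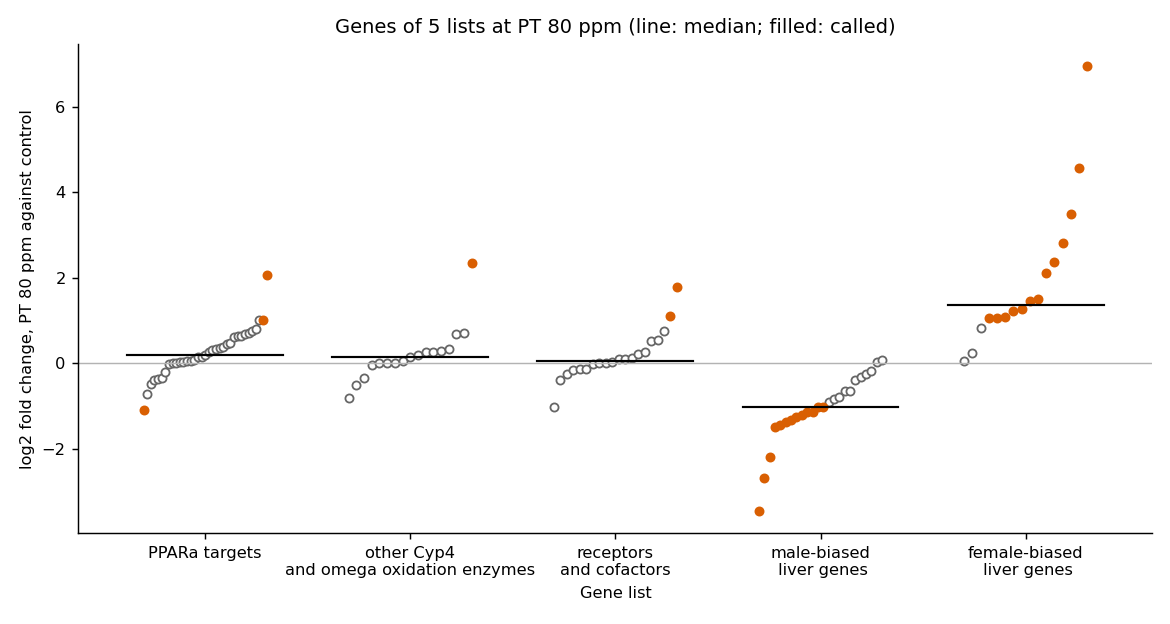
Fitted log2 fold change at PT 80 ppm against control of the tested genes of 5 lists, 1 point a gene, with a line at the list median and filled points for genes that were called. The median is 0.18 for the PPARα targets, -1.02 for the male-biased genes and 1.36 for the female-biased genes.

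Markers of liver cells were read beside these values. The 9 hepatocyte markers were high in all mice, at 35589 to 51540 CPM in sum in control mice and 35791 to 52807 CPM at PT 80 ppm. The sum of 9 pericentral markers was 7298 to 15026 CPM in control mice and 16185 to 26474 CPM at PT 80 ppm, without overlap. Cyp2e1 made up 94.7% of it. The Kupffer cell and leukocyte sum was 129 to 236 CPM against 33.005 to 160 CPM, and the sum of 9 periportal markers 4053 to 6285 CPM against 4298 to 14839 CPM. Of 8 kidney markers, a tissue that also expresses Cyp4a12a, 4 were in the table, all with a median of 3 counts or fewer, and their sum was at most 0.9 CPM at PT 80 ppm. The single tested cholangiocyte marker, Spp1, was called lower (-1.11 ± 0.26, and -0.93 ± 0.25 without mouse 1, which lost the call), at 11.4 to 55.6 CPM against 55.95 to 130 CPM in control mice. Of the hepatocyte, pericentral, periportal and Kupffer cell lists 0 genes were called by edgeR or DESeq2, while 4 of 9, 5 of 9, 4 of 9 and 8 of 10 tested genes had an unadjusted p under 0.05 by edgeR. The share of all tested genes at that unadjusted threshold is not given here, so these counts are not read as shifts of cell types. The part of the marker differences in the values of the Cyp4a genes was not tested.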

How the data were processed

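Liver RNA of 84 mice in 12 groups of 7 was measured by TempO-Seq. The authors aligned reads with STAR to mm39, quantified genes with Partek and deposited estimated counts per gene without normalization, in which 18.7% of values were not whole. Reads of near-identical genes can be divided among them by this estimation. The authors also deposited values adjusted for block and RNA isolator, as a score on the log2 scale, for 11064 genes. They were used in 1 alternative. Probe sequences were not used here.

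Counts were rounded and fitted with edgeR 4.0.16 (TMM, quasi-likelihood test) in 1 model with group, block and isolator over all mice, after genes with a median count of 8 or less were left out (10415 kept). Cyp4a14 was fitted without that filter over 17683 genes. A gene was called at a Benjamini-Hochberg adjusted p under 0.05 over all tested genes and a fold of at least 2, with no fold limit for slopes, any difference among groups, isolators and blocks. The SE of a log2 fold change is its size divided by the square root of F. Alternatives used limma 3.58.1 and DESeq2 1.42.0, run under R 4.3.3. In simulated data of 10415 genes, edgeR called 199 of 200 altered genes (log2 difference of 2, FT 10 ppm) and 2 unaltered ones. For slopes within MT it called 198 altered and 15 unaltered genes. For any difference among the 10 dosed groups it called 396 altered and 19 unaltered ones. The simulated data held no block, isolator or cage effects, so recovery with such effects was not tested.

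The members, the lists and the named genes were chosen with earlier results of these data known. Named genes are all members, Ppara, the 10 genes with the highest rank correlation with Cyp4a10, the 5 highest and 5 lowest with Cyp4a12a, and up to 8 called genes per list and direction at PT 80 ppm. Genes named without a call in the lists, and the mouse values of single list genes, were chosen after their values were seen. Separate mice were used as replicates, but cages were shared. Gene names came from GENCODE M39 for 17654 of 17695 identifiers, coding sequences were aligned with MAFFT 7.526, and the rest was done in Python 3.11.15 (matplotlib 3.10.9, scipy 1.17.1, pandas 2.3.3, numpy 2.4.6). Depth sets the floor of 3 counts, and intervals cover counting error only, since reads without molecular identifiers are not independent molecules. Coordinates are 1-based in GRCm39, the assembly of mm39.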

Additional observations from a re-analysis of the deposited data

Results flagged for a closer look

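In groups of 7, a mouse was taken as far from the others where its gap to the nearest mouse on the log2(CPM + 1) scale, divided by the range of the group, exceeded Dixon's 95% critical value. Of 72 pairs of a member and a group, 7 held such a mouse. The rate of about 1 in 20 behind the critical value holds for independent, normally distributed values. Counts near 0 and members that share reads are not of that kind, so the 7 are not compared with it. At FT 10 ppm, mouse 2 was the lowest for Cyp4a12a, with 174 CPM against 333 CPM in the next mouse (ratio 0.685), and for Cyp4a12b, with 43.5 CPM against 78.9 CPM (ratio 0.613). The same mouse was among the 3 with high Cyp4a10 in that group, at 18.9 CPM. Cyp4a14 was highest in mouse 3 at FT 20 ppm, with 1.82 CPM against 0.255 CPM (ratio 0.832), and in mouse 4 at PT 40 ppm, with 0.985 CPM against 0.378 CPM (ratio 0.599). In 1 mouse each at MT 10 ppm (mouse 3, 0.0789 CPM) and PT 20 ppm (mouse 1, 0.0856 CPM), a single count of Cyp4a14 stood against 0 in the other mice (ratio 1.0 in both), below the floor of 3 counts. Cyp4a31 was highest in mouse 4 at MT 50 ppm, with 17.6 CPM against 9.44 CPM (ratio 0.606). No difference in slope between OPPs passed the test for any member.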

How the results depend on the processing

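Of the 5 tested members over the other 10 dosed groups, 1 was called, and the count was 0 with EA mice only, 0 with near-identical members summed, 0 with only the control and the doses of 1 OPP in the fit, and 0 to 1 when each control or FT 10 ppm mouse was left out. Cyp4a10 at FT 10 ppm then had adjusted p = 0.0719 with EA mice only (log2 fold change 2.78) and 0.0701 with 1 OPP in the fit (3.13). With the deposited adjusted values and limma the count was 16, with Cyp4a10 at FT 20 ppm (2.08, adjusted p = 0.00128) and at PT 40 ppm (1.72, adjusted p = 0.00438) among them. This fit does not count the degrees of freedom that the adjustment used, and the cause was not tested. The share of all genes called in this fit is not given here, so the 16 is not read as a result about the members. At PT 80 ppm 4 members were past 2-fold, 2 features when members were summed, and 3 to 4 when each PT 80 ppm mouse was left out. Among the 10 dosed groups the call of Cyp4a10 was lost without covariates and with summed members, a count of 0 in each, and the count was 0 to 1 when each FT 10 ppm mouse was left out. Calls of members by isolator or block numbered 3, beside 38.7% and 39.9% of all tested genes, and 1 when members were summed. Genes of the lists called at PT 80 ppm numbered 33, and 68 without the fold limit. Slopes gave 0 calls under every alternative that was run. No called result changed direction, while the log2 fold change of Cyp4a31 at PT 80 ppm, which was not called, lay between -0.68 and 0.24 when each PT 80 ppm mouse was left out. Scaling by total counts moved the median of all genes by 0.12 (log2) at PT 80 ppm and by less than 0.1 in the other groups. No paired analysis was possible because the labels give no replicate numbers. Leaving out mice of FT 10 ppm, leaving out PT 80 ppm mice for list genes, and the alternatives for lists, isolator and blocks, were chosen after seeing the data. Depth limits Cyp4a14 most, since outside PT 80 ppm no group reached a median of 3 counts.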
